A study of Homo sapiens with 24 samples.

Results

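The regions described here are places in the genome where m6A-seq summits gathered outside every annotated protein-coding gene and lncRNA (long non-coding RNA). N6-methyladenosine (m6A) is a methylated adenosine in mRNA, and m6A-seq recovers fragments of RNA with an antibody against it, so that the peak of reads over a site, its summit, marks a called enrichment in RNA. Summits on chromosomes 1 to 22 and X of the 12 deposited lists were joined into one region wherever neighbours lay within 100 nt. A region was kept when the stretch from its first to its last summit overlapped no span of a protein-coding or lncRNA gene of RefSeq on GRCh38.p14. This left 3013 of 34172 regions (8.8%), which held 7147 of 154575 summits. The choice rested on summit positions and gene spans, and neither the value of a summit nor its line entered it. The tests below use recurrence, rank and position, so position enters both.

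The samples came from HepG2, an established liver cancer cell line with hepatocyte traits. Per the labels, 4 stable lines were made by lentiviral integration and puromycin selection. They carried EGFP (the control), METTL14 (WT), METTL14 (R298P) or METTL14 (D312A), and the labels name no deletion of the endogenous METTL14. There were 3 biological replicates per line, each with 1 immunoprecipitated (IP) and 1 input library of poly(A) RNA, 24 samples in all. The 12 IP libraries have a summit list each and are the ones used. The labels name neither the promoter of the cassettes nor whether a line is clonal.

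METTL14 is the partner subunit of METTL3 in the writer complex that methylates adenosines of nuclear RNA, most often in the core GGACT, and m6A is best known from long internal exons and the ends of coding regions. RNA also arises outside annotated genes. Polymerases run past the polyadenylation site, promoters fire in both directions, enhancers are transcribed, and many pseudogenes are copied into RNA. m6A on such transcripts is known to recruit nuclear readers and decay factors. A summit list carries no strand, so a region outside genes cannot be assigned to the transcript of its neighbour.

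Where a region fell into the promoter stretch that RefSeq gives around a gene start, its sequence could be read. These 89 regions show what the summits sit on, and the 6 that recurred in at least 10 libraries are printed from 50 nt before to 50 nt after the median summit (RefSeq, GRCh38.p14), in the direction of the gene. Capitals mark GGACT, or AGTCC where GGACT lies on the opposite strand. RAB17 (a small GTPase of epithelial cells; chr2:237590778-237590878, minus strand, 12 libraries) and PCNX3 (a membrane protein; chr11:65615620-65615720, plus strand, 11 libraries) held the core. DHRS3 (a retinal reductase; chr1:12618254-12618354, minus strand, 12 libraries), C6orf47 (chr6:31660838-31660938, minus strand), BMPR2 (a receptor for bone morphogenetic proteins; chr2:202376178-202376278, plus strand) and CEP43 (a centrosomal protein; chr6:166999154-166999254, plus strand), the last 3 in 10 libraries each, held it on neither strand.
RAB17: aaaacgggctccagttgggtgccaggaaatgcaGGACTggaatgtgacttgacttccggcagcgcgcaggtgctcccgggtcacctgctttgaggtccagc
PCNX3: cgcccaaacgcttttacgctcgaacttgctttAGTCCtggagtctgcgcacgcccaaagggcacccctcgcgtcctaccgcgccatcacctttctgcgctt
DHRS3: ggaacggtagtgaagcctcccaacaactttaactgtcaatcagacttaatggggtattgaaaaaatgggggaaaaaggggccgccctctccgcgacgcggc
C6orf47: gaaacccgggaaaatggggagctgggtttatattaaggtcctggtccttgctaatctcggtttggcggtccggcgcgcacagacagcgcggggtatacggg
BMPR2: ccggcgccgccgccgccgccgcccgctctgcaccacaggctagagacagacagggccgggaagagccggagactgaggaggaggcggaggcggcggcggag
CEP43: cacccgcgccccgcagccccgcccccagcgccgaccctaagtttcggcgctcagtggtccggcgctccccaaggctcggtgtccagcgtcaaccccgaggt

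Of the 89 regions, 22 (24.7%) held GGACT on either strand, 11 of them on the strand of the gene. Where all 50 nt on both sides could be read it was 16 of 53 (30.2%, 95% exact binomial interval 18.3 to 44.3, counting error only), and 5834 of 34943 RefSeq promoter stretches of that length held it (16.7%). With 100 nt on either side, 6 of the 18 regions with a full window held it (33.3%), beside 31.7% of promoter stretches. It was held by 4 of 16 regions of 6 or more libraries and 12 of 43 of 1 library. All promoter stretches ended at the base before the gene start, whereas the windows of regions were centred on summits. They were not matched for position, so their shares do not measure enrichment at summits. The shares describe promoters only, and other regions outside genes were not read.

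Depth and identity of the libraries bear on what follows. The lists held 8669 (D312A replicate 2) to 15373 summits (EGFP replicate 1), and the reads behind them are not used here. All 12 hepatocyte markers examined had summits in their spans, 11 to 109 summed per library, while 2 of 7 fibroblast, 3 of 6 blood and 2 of 4 endothelial markers had any, with at most 6 per list in a library. The METTL14 span, chromosome 4, 118685392 to 118715430, held 1 summit in each EGFP library and 7 to 11 (WT), 6 to 10 (R298P) or 3 to 9 (D312A) elsewhere. No region outside genes lay within 50 kb of it. The names of the deposited lists split replicate 1 of every line from replicates 2 and 3, and no source used here says what that split stands for.

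The first question was whether METTL14 or its substitutions changed how much of the called m6A signal lay outside genes. It made up 4.59% ± 0.637 of a library's summits (SD, n = 12). The EGFP libraries held 4.95%, 4.60% and 4.14%, the WT libraries 3.91%, 4.49% and 5.86%, the R298P libraries 3.92%, 4.79% and 5.24%, and the D312A libraries 3.79%, 4.20% and 5.17% (replicates 1, 2 and 3). The 4 lines overlapped throughout. The line accounted for 4.83% of the variance between libraries (exact permutation test over 15400 partitions, p = 0.934). None of the 6 differences between pairs of lines exceeded the spread between replicates. The largest was D312A minus WT at -0.365 percentage points (exact permutation test, two-sided, p = 0.6, Benjamini-Hochberg adjusted p = 1), where 3 libraries against 3 cannot give a p below 0.1. The plot of percentages by line shows the wide spread within each line.

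**Figure D1:**
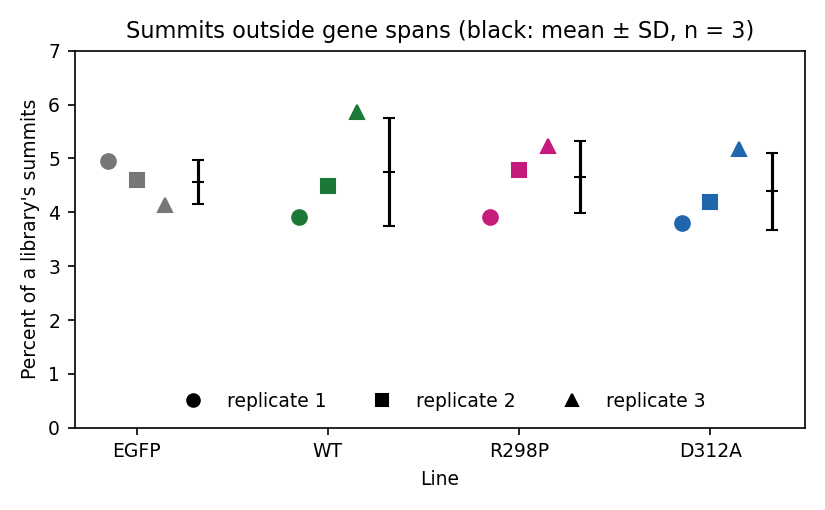
Percent of each IP library's summits that lay outside gene spans (vertical axis) in the 4 lines, with 1 point per library, shaped by replicate number, and the mean ± SD of 3 in black. The lowest library held 3.79% and the highest 5.86%, and the values of all 4 lines overlap.

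Regions outside genes recurred less than regions inside them. A summit in only 1 of the 12 libraries made up 1971 of the 3013 outside regions (65.4%) and 10257 of 31159 regions that overlapped a gene span (32.9%). Presence in all 12 libraries was reached by 63 outside regions (2.09%) against 3333 (10.7%), and presence in at least 6 by 355 (11.8%) against 35.4%. Over lines, 2032 outside regions were seen in 1 line, 369 in 2, 245 in 3 and 367 in all 4. Of the 2032 seen in 1 line, 61 were in 2 or more of its libraries. The plot of recurrence sets both classes side by side.

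**Figure D2:**
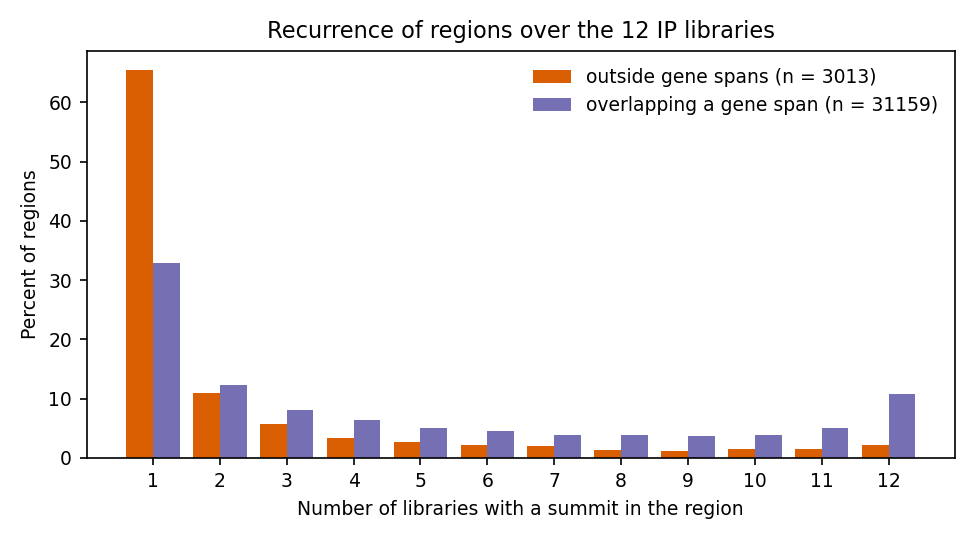
Percent of regions (vertical axis) by the number of the 12 IP libraries with a summit in the region (horizontal axis), for 3013 regions outside gene spans and 31159 that overlap one. Bars for regions outside genes are higher at 1 library (65.4% against 32.9%) and lower at every number from 2 to 12.

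The same was tested library by library. Within 100 nt of a summit in another library of the same line lay 38.8% to 63.2% of a library's outside summits (median 50.8%), and 70.5% to 85.5% of its other summits (median 76.3%). The ranges did not overlap. The difference was -25.6 ± 8.49 percentage points (SD, n = 12) and negative in 12 of 12 libraries (exact permutation test over sign flips, two-sided, p = 0.000488, the smallest they can give). Libraries of a line share their partners, and with 1 value per line the 4 differences allow no p below 0.125. Between 2 libraries, the overlap of outside regions was 39.8% ± 4.98 within a line (12 pairs), 42.5% ± 10.2 between lines at the same replicate number (18 pairs) and 38.6% ± 4.83 for the other 36 pairs. The 6 pairs of replicate 1 shared 50.7% to 58.5%, above every pair within a line (at most 45.3%), and the 12 pairs of replicates 2 and 3 shared 26.9% to 42.9%.

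Outside summits also ranked lower. Each summit has a value from the peak caller, a −log10 p or q value, which was turned into a percentile within its own list (100 is the best). The median outside summit stood at percentile 26.1 to 48.2 (median of libraries 30.6) and the median of the other summits at 50.2 to 51.4. The difference was -14.8 ± 9.33 (SD, n = 12) and negative in all 12 libraries (exact permutation test over sign flips, two-sided, p = 0.000488). Over the 8669 best summits of each list it was -8.39, and the gap in sharing -16.8. It was not alike in all libraries. In the 4 libraries of replicate 1 it was -3.01 ± 0.992, and in the 8 of replicates 2 and 3 it was -20.7 ± 4.08, a gap of 17.7 that the ranges did not bridge (exact permutation test, two-sided, chosen after seeing the data, p = 0.00202).

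The gap in sharing also differed along that split, at -17.5 ± 6.07 in replicate 1 and -29.7 ± 6.42 in replicates 2 and 3 (exact permutation test, two-sided, p = 0.0141). Outside summits of replicate 1 lay nearer to genes, with 69.2% ± 0.702 within 10 kb against 56.5% ± 3.99 (n = 4 and 8), and fewer of their regions were seen in that library alone, 14.3% ± 5.81 against 33.1% ± 5.86. What the split stands for was not tested. The gap in sharing narrowed with rank. In the weakest 0.25 of each list, 30.1% of outside and 57.0% of other summits were shared, a difference of -26.9 points. In the best 0.25 it was 90.6% against 95.2%, a difference of -4.59 (negative in 10 of 12 libraries, exact permutation test, p = 0.00732, also after adjustment over the 4 parts). The plot of sharing and rank shows each library.

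**Figure D3:**
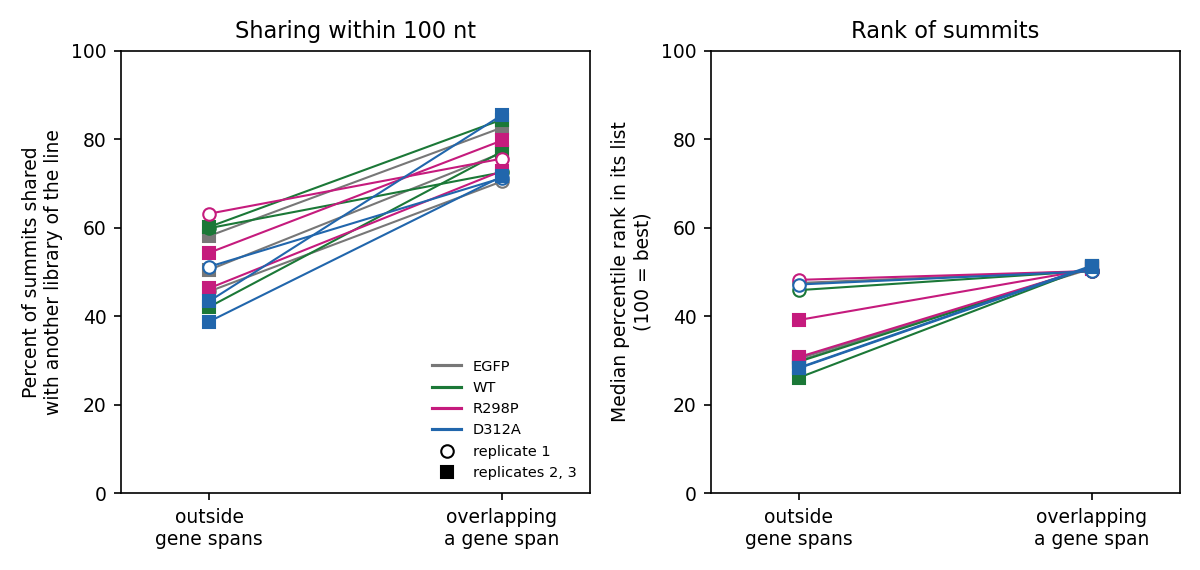
Left, percent of a library's summits with a summit of another library of its line within 100 nt; right, median percentile rank of its summits in its own list; each line joins the value outside gene spans to that overlapping one in 1 library, coloured by line, with open circles for replicate 1. All 12 lines rise from left to right in both panels, and the open circles lie between 45.9 and 48.2 for rank outside genes.

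Regions outside genes lay close to them. The median distance to the nearest gene boundary was 9842 nt, with quartiles of 2331 and 32099 nt and a smallest distance of 2 nt. Within 1 kb lay 511 regions (17.0%), where 3.22% of the 1402 Mb between gene spans lie, and within 10 kb lay 50.6%. Density fell from 16.9 regions per Mb in the first 100 nt to 10.6 from there to 1 kb, 2.05 at 10 to 50 kb and 0.641 beyond 100 kb. The nearest gene was protein-coding for 1575 regions and a lncRNA for 1438. Recurrent regions were nearer. The median distance was 13675 nt for regions in 1 library, 5926 nt in 2 to 5, 3878 nt in 6 to 11 and 3629 nt in all 12. By chromosome, density ran from 0.81 regions per Mb on chromosome 13 to 6.15 on chromosome 19.

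Strand was known for the nearest gene of 2079 regions, of which 1098 lay nearest to a 3′ end (downstream) and 981 nearest to a 5′ end (upstream). Within 1 kb of a gene, 264 regions lay upstream and 122 downstream. In every library the upstream side held more of these summits, with at most 37.9% downstream (mean 32.6% ± 4.98, n = 12; downstream minus upstream -34.8 points; exact permutation test over sign flips against an even split, two-sided, p = 0.000488). From 1 to 10 kb the order was the opposite, with 441 regions downstream and 296 upstream, and 61.1% ± 3.92 of summits downstream in 12 of 12 libraries. Beyond 10 kb it was 535 and 421 (56.0% downstream), and 59.5% ± 4.77 of summits, over an even split in 12 of 12, with the lowest library at 50.4%. Of the bases between genes in these 3 classes, 54.4%, 53.4% and 54.6% lie on the downstream side. Beyond 10 kb the share of regions was thus near that of bases, and the lowest library was below it. A region in several libraries counts in each of them.

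The excess upstream within 1 kb was there in 12 of 12 libraries when only protein-coding boundaries were used (downstream minus upstream -38.1 points). With those boundaries the share downstream at 1 to 10 kb was 50.2% ± 4.08, over an even split in 6 of 12 libraries (exact permutation test, p = 0.870), and beyond 10 kb 53.0% ± 3.28, in 10 of 12 (p = 0.00391 by the same exact test). With regions in any other RefSeq gene left out, it was 58.8% ± 5.41 at 1 to 10 kb (12 of 12) and 59.0% ± 5.58 beyond (11 of 12). Over all distances 53.0% ± 2.43 of summits lay downstream, 6.04 percentage points more than upstream (exact permutation test, p = 0.00293), where 54.4% of the bases do. That difference turned to -4.65 with protein-coding boundaries (exact permutation test, p = 0.00586) and to -0.014 when regions in any other RefSeq gene were left out (exact permutation test, p = 0.995), so no direction over all distances can be given. By line, the share downstream over all distances was 54.5% to 56.7% in EGFP, 53.4% to 54.6% in D312A, 49.4% to 53.6% in WT and 49.8% to 51.7% in R298P. These ranges hold for the main boundaries only, and lines were not compared with the other boundaries. The difference between lines was not tested.

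**Figure D4:**
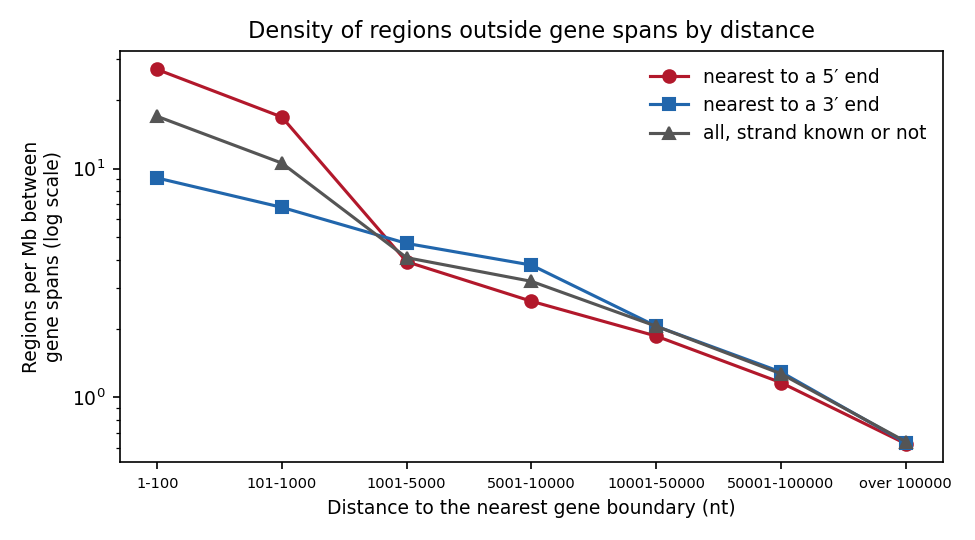
Regions outside gene spans per Mb of sequence between genes (vertical axis, log scale) by distance to the nearest gene boundary in nt (horizontal axis), for regions nearest to a 5′ end, nearest to a 3′ end, and all. Density over all regions falls from 16.9 per Mb within 100 nt to 0.641 per Mb beyond 100 kb, and the 5′ side is above the 3′ side only up to 1 kb.

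Many of these regions were not without annotation. Spans of other RefSeq gene types held 465 of the 3013 (15.4%), although such spans cover 3.16% of the bases between genes. Transcribed pseudogenes, copies of genes that are still made into RNA, held 348 regions, and pseudogenes without that note held 128. The share rose with recurrence, from 9.44% of regions seen in 1 library to 33.5% of those in at least 6. Of 1246 annotated transcribed pseudogenes 169 held a region, against 96 of 15212 other pseudogenes, and none of the 1911 miRNA or 1196 snoRNA genes did. These totals include genes within protein-coding or lncRNA spans, which could not hold an outside region. Gene length was not taken into account either, so the shares do not compare gene types. The pseudogene DUXAP9 on chromosome 14 held 13 regions, of which 8 were in at least 6 libraries and 2 in all 12, and each library had between 4 and 10 of them. LOC112268335 on chromosome 6 held 9, of which 4 were in at least 6 libraries and 1 in all 12, and ZNF37BP, CUTALP and BEND3P3 held 8 each. Pseudogenes resemble their parent genes, and no source used here says how reads matching both were placed, which leaves the origin of these summits uncertain. In no RefSeq gene of any type lay 2548 regions.

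Recurrent regions came in runs. Joining outside regions with gaps of at most 10 kb gave 2292 runs, of which 160 held 3 or more regions. Those 160 runs took in 683 regions (22.7%), but 54.6% of the regions in at least 6 libraries and 11.8% of those in 1. The run with most regions, 12, lay in DUXAP9 (chromosome 14, 19096641 to 19106794). The next, of 11, began 286 nt after the 3′ end of MDH2, the mitochondrial malate dehydrogenase, and spanned 7422 nt (chromosome 7, 76067794 to 76075215). A run of 8 regions beside RAB17 and its divergent transcript RAB17-DT (chromosome 2, 237590822 to 237600988) had 3 regions in all 12 libraries, and between 3 and 7 of its 8 in each library. ADRA2C, an adrenergic receptor, had 8 regions before its 5′ end, and between 1 and 4 of them in each library. HAAO, an enzyme of tryptophan breakdown, had 8 regions before its 5′ end.

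The 10 best-ranked regions present in all 12 libraries were led by one on chromosome 18, 14255363 to 14255373. It lay 122928 nt before the 5′ end of ZNF519, a zinc finger gene. Its percentile was 93.2 at the lowest, 98.6 in the median library and 99.9 at the highest, and no line stood apart. Next to KRABD5 (chromosome 16, 31708144 to 31708165, 5079 nt upstream) the region ranked at 86.7 to 99.0 (median 94.5). The other 8 lay nearest to LOC105370926 (in the pseudogene GOLGA2P10), NPIPA9 (in PKD1P5), NKD1, LOC105372952 (in BMS1P20, IGL and IGLV5-52), RAB17, ZMPSTE24, HISLA and LOC105376034 (in EBLN3P). NKD1, an inhibitor of Wnt signalling, had its region 1943 nt away at percentiles 82.2 to 96.7. The RAB17 region printed above, 88 nt before the gene, ranked at 77.8 to 97.5 (median 92.0), with its 2 lowest values in D312A replicates 2 and 3. ZMPSTE24, the protease that matures prelamin A, had a region 498 nt before its 5′ end at 56.8 to 99.7 (median 91.4), the lowest in D312A replicate 2.

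Farthest from any protein-coding or lncRNA gene, among regions of at least 6 libraries, was one on chromosome 20, 28565164 to 28565194. It was in 10 libraries, 836581 nt from LOC105379476, at percentiles 4.02 to 80.0. A region 311485 nt after LOC105378879 on chromosome 1 (104462210 to 104462302) was in all 12 libraries at percentiles 22.2 to 79.3 (median 58.0). The other 3 lay 352899 nt from LOC101927209 (in SNX18P24, of another gene type), 312659 nt from LOC101928201 and at ZNF519. At the threshold itself, regions of WDR54 (2 nt outside), TPT1-AS1 (4 nt) and C6orf47 (8 nt) counted as outside, and regions of TMEM86B, COL4A5 and FUNDC1, at 0, 0 and 2 nt inside a boundary, did not. Of the regions inside, 25 straddled a boundary.

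Presence was then compared between lines, gained meaning a summit in 3 of 3 libraries of the first line and none of the second, and lost the opposite. EGFP had 1337 outside regions in at least 1 library and 180 in all 3, WT had 1377 and 212, R298P 1172 and 187, and D312A 1087 and 111. R298P and WT were each carried by 1 stable line, so the substitution and the line cannot be told apart. R298P against WT gained 9 and lost 18 of the 1985 outside regions present in either (0.453% and 0.907%). Over all regions it gained 0.714% and lost 1.73%. Of the 147 outside regions in exactly 3 of the 6 libraries, 27 (18.4%) lay wholly in 1 line, against 22.8% over all regions. Losses did not outnumber gains alike under every setting. Over the 8669 best of each list 13 were gained and 12 lost, and among values of at least 10 it was 12 and 14. Both shares of outside regions were below those over all regions, and 1 region cannot pass a test with 3 libraries against 3. Leaving out a library of the pair, so that 2 decide its line, raised the 27 calls to as many as 69 (without WT replicate 1) and by over 1.5 times for each of the 6 but R298P replicate 3.

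The other comparisons gave 6 to 28 calls. WT against EGFP gained 3 and lost 3 outside regions of 2056 (over all regions 0.41% gained and 0.257% lost). R298P against EGFP gained 16 and lost 12 of 1962, or 0.815% and 0.612% (over all regions 0.79% and 1.56%). D312A against EGFP gained 2 and lost 10 of 1909 (0.168% and 1.17% over all regions). D312A against WT gained 0 and lost 12 of 1925 (0.116% and 1.33%). R298P against D312A gained 18 and lost 1 of 1776 (1.48% and 0.367%). D312A has the shortest list, in replicate 2, and these comparisons share lines, so their counts are not independent.

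Summit positions after MDH2 differed between R298P and the other lines. One region, 7507 nt after the 3′ end of the gene (chromosome 7, 76075015 to 76075029), was in all 9 libraries of EGFP, WT and D312A and in none of R298P. It was the only outside region that 1 line alone lacked and the other 9 libraries held (0.0332% of 3013, against 0.0673% of all regions for R298P). Its percentile was 74.6, 86.1 and 83.0 in EGFP, 87.5, 83.7 and 61.4 in WT and 75.1, 73.8 and 94.3 in D312A (replicates 1, 2 and 3). A second region 7656 nt after the gene (76075164 to 76075215) was in the 3 R298P libraries alone, at percentiles 90.9, 82.3 and 97.4. The R298P summits stood 7656, 7683 and 7707 nt after the gene and the other 9 between 7507 and 7521 nt. The gap between the 2 regions is 135 nt, so that joining summits within 200 nt makes them a single region of all 12 libraries. Only summit positions were used, and whether 1 signal moved or 1 was lost and another gained was not tested. Within the same run, regions 4286 and 5464 nt after the gene were in 12 of 12 libraries. The plot of summits after MDH2 shows the run.

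**Figure D5:**
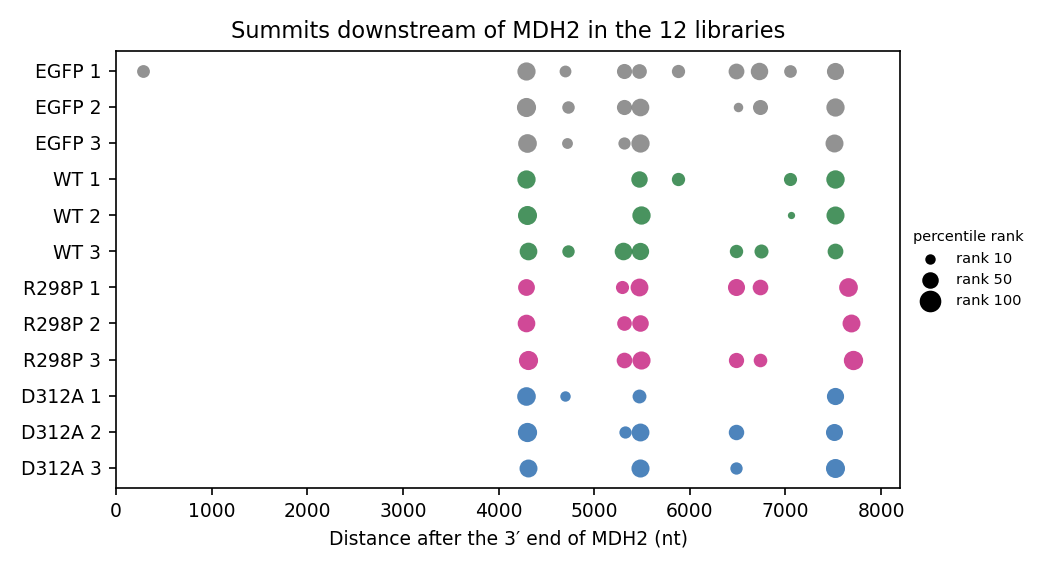
Summits in the 12 IP libraries (rows, coloured by line) by distance in nt after the 3′ end of MDH2 (horizontal axis); larger points have a higher percentile rank in their list. The last summit lies between 7507 and 7521 nt in the 9 libraries of EGFP, WT and D312A and between 7656 and 7707 nt in the 3 R298P libraries, while summits near 4286 and 5464 nt are in all 12.

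Seen in 3 of 3 libraries of 1 line and none of the other 9 were 6 outside regions in R298P (0.199% of 3013), 1 in WT (0.0332%), 0 in EGFP and 0 in D312A. Over all 34172 regions the shares were 0.208% in R298P, 0.0761% in WT, 0.0322% in EGFP and 0% in D312A, so the share of R298P was near that background. Beside MDH2, the R298P regions named by rank were one 12777 nt after GABPB1-AS1 (chromosome 15, 50371089 to 50371116; percentiles 75.2, 62.2 and 61.6), one in the pseudogene RNF216P1 nearest to MMD2, one near LOC105373485 and one in HERC2P9 nearest to GOLGA8M. The sixth lay 2816 nt after D2HGDH, a mitochondrial dehydrogenase, and is named because the count is small. The RNF216P1 region lay 137 nt from another region, which was present in 9 libraries. The region of WT lay nearest to the lncRNA CASC19 and ranked at a median percentile of 7.17. The other best-ranked gains of R298P over WT were one in DUXAP9, present in 6 libraries, and one in SNX18P24 that WT alone lacked. The DUXAP9 region lay 144 nt from a region of 11 libraries, and the SNX18P24 region 352899 nt after LOC101927209.

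Among the 18 regions that R298P lacked and WT had, the best ranked after MDH2 were near PXDC1, HAAO, KBTBD2 and WDR54. The PXDC1 region (chromosome 6, 3753332 to 3753343, 1619 nt away) stood at percentiles 89.4, 55.8 and 81.3 in EGFP and 50.7, 66.1 and 70.4 in WT, and had no summit in R298P or D312A. The WDR54 region 2 nt after the gene was in 3 EGFP, 3 WT and 1 D312A library, at percentiles 49.7 to 81.2. The HAAO region, 3392 nt before the gene, was in 3 WT libraries and 1 EGFP library at 42.9 to 93.5. The KBTBD2 region, in the pseudogene RP9P, was in 3 WT, 2 EGFP and 1 D312A library. With summits joined within 200 nt, 6 of the 9 gained and 14 of the 18 lost regions kept their call. The gained regions that did not were those at MDH2, in RNF216P1 nearest to MMD2 and in DUXAP9. Among the lost ones were those at MDH2 and HAAO, the latter 102 nt from its neighbour.

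Genes with named roles were then examined for a region after their 3′ end within 10 kb. Of 15812 protein-coding genes with a known strand 246 (1.56%) had one. Of hepatocyte secreted proteins 1 of 14 did, AHSG (fetuin-A), with a region in 1 R298P library. No liver transcription factor (0 of 12) and no immediate early gene (0 of 14) did. Of the m6A writers, readers and erasers 2 of 15 did. RBM15, a writer subunit that guides METTL3 to RNA, had a region 695 nt after its end (chromosome 1, 110347372 to 110347438) in 2 EGFP, 3 WT, 3 R298P and 2 D312A libraries, and a second at 1028 nt in 1 library of each line. IGF2BP2, a reader, had one in a single library. Of the zinc finger genes 15 of 437 did (3.43%), among them ZNF839 with a region in 12 of 12 libraries 1477 nt after its end. Others, such as ZNF501, ZNF248 and ZNF850, had a region in 1 library only. The regions after ZNF582 and ZNF814 lay in the pseudogenes ZNF542P and UBE2CP5. Those after ZNF708, ZNF607 and ZNF546 lay in COX16P1, ZNF781 and LOC390933, also of other gene types. Histone genes, whose replication-dependent mRNAs lack poly(A) tails, had 2 of 67. No list was tested against the share over all protein-coding genes, and chromosome was not taken into account.

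The genes with most regions after the 3′ end within 10 kb were MDH2 with 11, TGILR with 9, NUTM2B-AS1 with 8, RAB17-DT with 7, D2HGDH and ARSL with 6 each, and XNDC1N-ZNF705EP-ALG1L9P, WDR4, USP46-DT and PHF19 with 5 each. All of those after TGILR, NUTM2B-AS1, XNDC1N-ZNF705EP-ALG1L9P and PHF19 lay in the pseudogenes LOC112268335, BEND3P3, ALG1L9P and CUTALP. ARSL, an arylsulfatase, had 3 of its 6 in at least 6 libraries, while WDR4, a tRNA methyltransferase subunit, had none of 5. Before the 5′ end, ADRA2C and HAAO had 8 each, CLPTM1L 7, and SMARCE1, a chromatin remodelling subunit, and LINC00997 had 5 each.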

How the data were processed

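m6A was measured in 24 samples (12 IP, 12 input), grouped by their titles. The authors deposited 1 list of summits per IP library. Its value is a −log10 p or q value by MACS2's convention (which of the 2 is not stated in the deposited lists), 5.00 at the lowest. The submitters' processing notes name STAR 2.7.9a, MACS2 2.1.2 and build hg38, among other tools, and no pooling of replicates is recorded. Their table for the whole series was not used here, since its 18 columns of per-library values match no sample title.

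Summits within 100 nt were joined with Python 3.11.15 (pandas 2.3.3), and spans came from RefSeq GRCh38.p14 (38147 protein-coding and lncRNA genes, strand known for 71.3%). Functions were tested on simulated summits. Exact permutation tests used libraries as units. The p-values measure the spread between libraries the labels call biological replicates. Read depth is unknown. Members, lists and comparisons were chosen with earlier results of these data known. Named regions were the 10 best-ranked in 12 libraries, the 5 best gained and lost in R298P against WT and the best of the other pairs, up to 5 regions of 1 line alone, the 5 farthest, the 3 nearest on each side of a boundary, the most recurrent in the promoter table, and the genes with most flanking regions. The 4 parts of a list by rank, the split of replicates, the distance classes of side and the runs were added after seeing the data. Of the analyses planned, the motif test over all summits was not run, since no genome sequence was given.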

Additional observations from a re-analysis of the deposited data

Results flagged for a closer look

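The difference in median rank between outside and other summits was nearer to 0 in replicate 1 than in replicates 2 and 3, by 17.7 percentile points (exact permutation test over 495 assignments, two-sided, p = 0.00202). The difference in the percent of shared summits was likewise nearer to 0 in replicate 1, by 12.1 points (p = 0.0141 by the same exact permutation test). Both were singled out because the same contrast differs between 2 sets of libraries, which the list names separate in every line. The percent of summits outside genes was 4.14% ± 0.542 in replicate 1 and 4.81% ± 0.584 in the others (SD, n = 4 and 8; exact permutation test, p = 0.0889). The downstream minus upstream difference was 6.89 and 5.62 (p = 0.693 by the exact permutation test).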

How the results depend on the processing

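The number of outside regions was 2674 to 2970 with a library left out, 1634 with summits of a value of at least 10, and 1366 with every list reduced to 8669 summits, where fewer summits enter. The differences in sharing (-26.5 to -23.4 without 1 library) and rank (-16.0 to -13.9) stayed negative in every alternative that was run. They also stayed past the threshold in all but 2, both for sharing. There, 1 value per replicate number with the replicate block (exact permutation test, p = 0.25, -25.6) or 1 value per line (exact permutation test, p = 0.125) cannot reach it. Rank was not run with 1 value per replicate number or per line. Downstream minus upstream was 5.34 to 6.69 without 1 library, but -0.014 with spans of every gene type and -4.65 with protein-coding boundaries; the cause was not tested. The line explained 1.44% to 19.6% of the variance without 1 library, and 8.32% with the replicate block (exact permutation test, p = 0.847). Its numbers pair the samples weakly (mean correlation 0.076 over all regions and 0.0596 over outside regions, above 0.1 in 5 of 18 pairs for both). Pairs of replicate 1 shared more outside regions (50.7% to 58.5%) than those of replicates 2 and 3 (26.9% to 42.9%). D312A was below WT and below R298P at 3 of 3 replicate numbers, where exact permutation within numbers allows no p below 0.25. The differences between lines crossed 0. Without 1 library they ran from -0.572 to 0.119 (D312A minus EGFP), -0.791 to 0.186 (D312A minus WT), -0.0337 to 0.657 (R298P minus D312A), -0.208 to 0.446 (R298P minus EGFP), -0.525 to 0.45 (R298P minus WT) and -0.364 to 0.611 (WT minus EGFP). With values of at least 10, R298P minus WT was 0.386 and WT minus EGFP -0.0836. With reduced lists, R298P minus WT was 0.731, WT minus EGFP -0.0507, D312A minus EGFP 0.471 and D312A minus WT 0.521. R298P minus EGFP was -0.0165 with spans of every gene type, and D312A minus EGFP 0.318 in replicates 2 and 3; the cause was not tested.

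Gained plus lost regions moved with the settings. In replicates 2 and 3 alone, where 2 libraries decide a call, they numbered 102 (R298P against WT), 59 (WT against EGFP), 98 (R298P against EGFP), 65 (D312A against EGFP), 87 (D312A against WT) and 87 (R298P against D312A). Without 1 library, where 2 decide for its line, the ranges in that order were 27 to 69, 6 to 28, 28 to 61, 12 to 37, 12 to 49 and 19 to 51. D312A against WT gave 5 with joining within 200 nt, 4 with reduced lists and 7 with spans widened by 1 kb. D312A against EGFP gave 5 and 7 under the last 2 settings, R298P against EGFP 16 with reduced lists, and WT against EGFP 2 with values of at least 10. Regions in other gene types numbered 424 when at least 100 nt inside. Within 5 kb, 0 hepatocyte secreted proteins had a region after the 3′ end, against 1 within 10 kb. Outside regions carry few and mostly low-ranked summits, so counts between lines rest on small numbers.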
